A study of Mus musculus with 8 samples.

Results

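Kupffer cells are the macrophages that live inside the liver sinusoids. They were profiled here in the sham-operated state, from 4 of the 8 bulk RNA libraries of the series, all of those labelled Sham. Wild-type C57BL/6J mice had sham surgery, the livers were taken 2 h later, and the cells were isolated by fluorescence-activated cell sorting. All 4 libraries share this genotype, operation and time, and every mouse was kept on chow under specific pathogen-free housing. Unoperated mice were not analysed here, so the level described is that of cells after a sham operation and a sort. The labels give no age, sex, sorting gate or batch, and leave unsaid whether separate mice gave the libraries. An SD therefore measures the spread between these libraries, which may be technical. The libraries are named Sham 1 to Sham 4 after their replicate numbers, and every list of 4 values follows that order.

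Kupffer cells take up particles, bacteria, complement-coated targets and worn-out red blood cells from portal blood. They recycle the iron of haemoglobin, degrade the rest in lysosomes and release complement, chemokines and lipid-carrying proteins. Their identity is known to be held by lineage factors such as Spi1 together with Id3, Spic and the liver X receptor Nr1h3, under signals from the neighbouring sinusoidal endothelium, stellate cells and hepatocytes.

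Total counts over 55414 genes were 28160750, 28029143, 23311897 and 26520280. Levels are given as counts per 1000000 (CPM), scaled by the trimmed mean of M-values (TMM) over these libraries, when a gene is followed across libraries. Levels are given as transcripts per 1000000 (TPM), which also divide by the merged exon length, when genes are compared with each other. Sham 3 stood apart from the others. Across 12976 genes, its log2 CPM correlated with those of the other libraries at 0.982 to 0.987, against 0.990 to 0.991 among the rest. These correlations run across genes, which are not independent replicates. Sham 3 also held the largest share of long intergenic noncoding RNA, which made up 1.09, 1.16, 1.96 and 1.16% of counts. Most of that share was a single gene, Malat1, at 0.880, 0.934, 1.69 and 0.933% of counts. Sense-intronic transcripts made up 0.0309, 0.0335, 0.0612 and 0.0365% of counts and were again highest in Sham 3, while mitochondrial genes took 0.825, 0.729, 0.940 and 0.915%. Some CPM means and list sums are therefore also given without Sham 3, while the TPM means and the other list sums include it. The part of these differences in the gene levels of Sham 3 was not tested. Fewer cells of a type and less RNA per cell cannot be told apart in bulk RNA.

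Transcription was broad and the most abundant genes took a moderate share. A level of 1 CPM or more in every library was reached by 12288 genes, of which 11211 were protein coding, or 51.1% of the protein-coding genes in the annotation. The minimum of 100 CPM left 1891 genes, and 1000 CPM left 81 genes, which together took 22.4% of counts. The 10 most abundant genes held 7.59, 7.63, 7.995 and 7.56% of counts, and the 100 most abundant held 24.7, 25.2, 23.4 and 24.6%, a mean of 24.5 ± 0.760% (SD, n = 4). Without Sham 3 the mean share of the leading 100 genes was 24.9%.

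**Figure D1:**
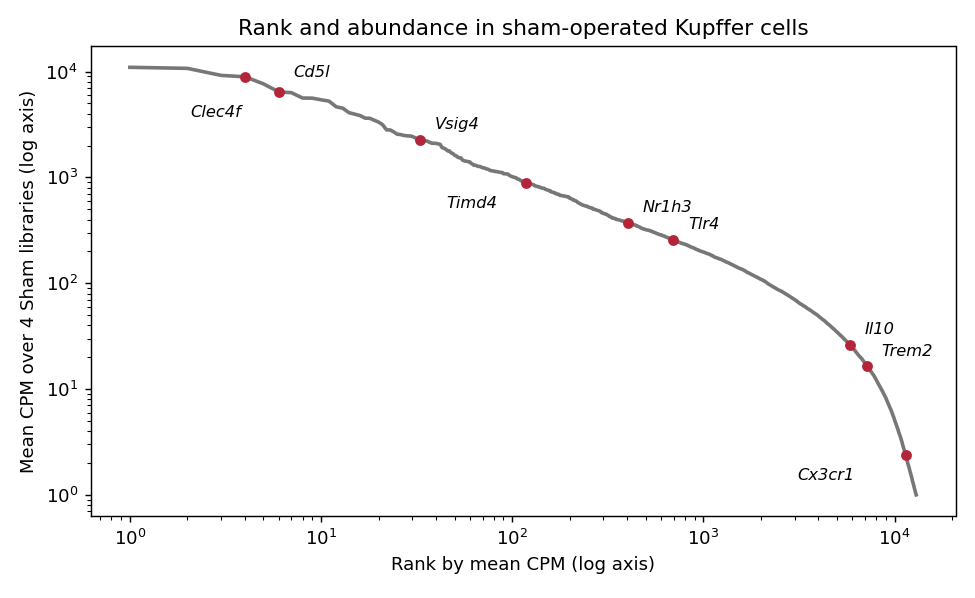
Mean CPM over the 4 Sham libraries (vertical log axis) against the rank of each gene (horizontal log axis, genes with a mean of 1 CPM or more), with selected genes marked. Clec4f is at rank 4, Timd4 at rank 118 and Cx3cr1 at rank 11420.

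All 4 markers that define the population were abundant in every library. Clec4f, a C-type lectin restricted to Kupffer cells, stood at 9316, 9119.5, 7528 and 9771 CPM, the 4th highest mean of all genes. Cd5l, a secreted scavenger protein of tissue macrophages, stood at 6725, 7637, 5115 and 6282 CPM and ranked 6th. The complement receptor Vsig4 stood at 2519, 2403, 1755 and 2366 CPM and ranked 33rd. Each of these 3 markers was lowest in Sham 3. The other libraries lay close together for Clec4f and Vsig4, while Sham 2 was above the rest for Cd5l. Timd4, a phosphatidylserine receptor of long-resident Kupffer cells, was lower and more spread, at 1090, 952, 621 and 909 CPM, rank 118. Sham 1 was highest and Sham 3 lowest for Timd4, and its coefficient of variation (CV, SD over mean) was 22.1% against 10.9% for Clec4f. Without Sham 3 and with the scaling kept, the means were 9402 CPM for Clec4f, 6881 for Cd5l, 2429 for Vsig4 and 984 for Timd4.

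Per length, the leading transcripts were those of the cytoskeleton, complement C1q, lipid carriage and lysosomal digestion. Actb, cytoplasmic actin, had the highest mean level at 15107 ± 947 TPM (SD, n = 4, as for every mean ± SD that follows). Clec4f followed at 13640 ± 1019.5 TPM, then Apoe, the apolipoprotein of lipid efflux, at 13524 ± 247 TPM, and the mitochondrial transcript mt-Co1 at 13296 ± 1425 TPM. The ranges of Actb and Clec4f overlapped, so their order is not firm. Tmsb4x, an actin-binding peptide, stood at 12402 ± 347 TPM, and the C1q chains C1qa and C1qb at 12090 ± 431 and 12014 ± 377 TPM. Behind them came Cd5l, the lysozyme gene Lyz2 at 11330 ± 867 TPM and Ctss, cathepsin S, at 8708 ± 1077 TPM. Further members of the leading 20 per length were B2m, C1qc, the lectin Fcna, Cd74, Malat1, Vsig4, Ctsb, Psap, the haem oxygenase Hmox1 and the legumain gene Lgmn, from 7353 down to 4371 TPM. Of the 20 leading genes by CPM and by TPM, 13 were shared. Long transcripts led only the CPM order, such as Lrp1 (rank 8 by CPM and 89 by TPM) and Vcam1 (17 and 67).

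The single most abundant gene by CPM was Malat1, a noncoding RNA kept in the nucleus, at 9269, 9631, 15808 and 9206 CPM. Sham 3 alone accounted for that first rank: the other 3 libraries lay within a narrow band below it, and without Sham 3 the mean was 9369 CPM against 11041 for Actb. Actb, Ctsb, Apoe, Csf1r, Sdc3, Slc40a1, Mpeg1, Tmsb4x, Cd163, Lyz2, Psap and the 3 C1q chains made up most of the rest of the leading 20 by CPM, with means from 10731 down to 3334 CPM.

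**Figure D2:**
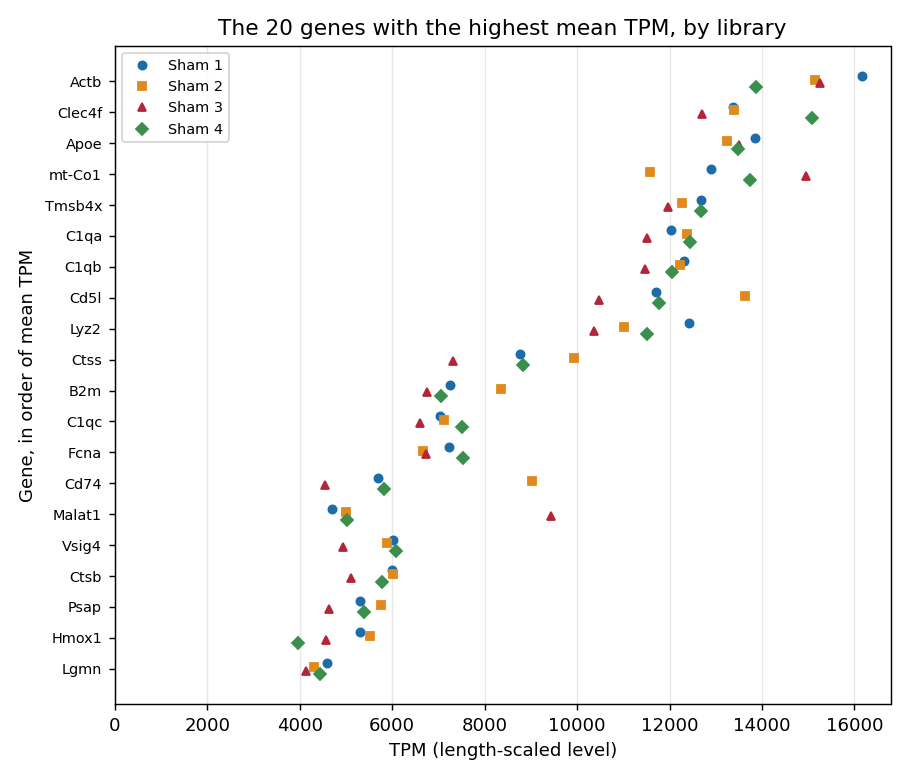
TPM in each Sham library (horizontal axis) for the 20 genes with the highest mean TPM, in order from the top. Sham 3 is the highest point for Malat1 and the lowest for Vsig4 and Ctsb, and Sham 2 is the highest for Cd74.

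Most genes of the wider identity lists were also abundant. The Kupffer cell list includes the 4 markers, so its level and sum are not independent of theirs. All 28 genes of this list reached 1 CPM in every library, and 26 had a mean of 100 CPM or more. Their median level was 796 TPM, against 23.5 TPM over protein-coding genes at 1 CPM or more in every library. The list was written from knowledge of Kupffer cells, so its level is a check of the sort and not an independent result. Cd163, the haptoglobin-haemoglobin scavenger receptor, stood at 4311, 4309.5, 3516 and 4235 CPM. Hpgd, which degrades prostaglandins, was next per length at 2259.9 ± 265 TPM, followed by the iron exporter Slc40a1 at 2210 ± 171 TPM. Folr2, a folate receptor, reached 1872 ± 121 TPM, although 63.1% of its exon length overlaps another gene. The lowest member was Xlr at 15.2, 15.9, 15.01 and 15.4 CPM, which also had the lowest CV of the list, 2.56%. Summed over the list, identity genes held 42369, 41897, 33454 and 40726 CPM, lowest in Sham 3, with a mean of 39611 CPM, or 41664 without Sham 3.

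General macrophage genes were likewise complete: 20 of 20 reached 1 CPM in every library. After Lyz2 and Ctss, the growth factor receptor Csf1r stood at 6926, 6978, 5215 and 6171 CPM and the pore-forming protein gene Mpeg1 at 4994, 5410.1, 3617 and 4591 CPM. Adgre1, which encodes F4/80, reached 2574 ± 198 TPM and the signalling adaptor Tyrobp 3093 ± 146 TPM. A pair of members, picked out after their values were seen, were far lower. Itgam, which encodes CD11b, stood at 36.03, 22.2, 28.8 and 27.1 CPM, and the fractalkine receptor Cx3cr1 at 2.06, 2.83, 3.48 and 1.23 CPM. Per length, Itgam was at 21.5 ± 4.16 TPM and Cx3cr1 at 2.04 ± 0.936 TPM, below the protein-coding median given above, and 68.7% of the Itgam exon length overlaps another gene.

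Receptors were examined in 8 families with 188 genes in all. Of these, 162 (86.2%) reached 1 CPM in every library, 90 had a mean of 100 CPM or more, and 4 had no count in any library. The families were chosen as receptors known in myeloid cells, so the share is a description of these lists. Beside it, 51.1% of all protein-coding genes reached the same level.

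Scavenger receptors take up modified lipoproteins, bacteria and haemoglobin complexes. Cd163 led at 2827 ± 116 TPM, and the mannose receptor Mrc1 stood at 2567, 2729, 1937 and 2541 CPM, lowest in Sham 3. Marco, a receptor for unopsonised bacteria, stood at 899, 681, 537 and 519 CPM, with Sham 1 above the other 3. The endocytic receptor Lrp1, at 5406, 5537, 6097 and 5466 CPM, went the other way and was highest in Sham 3. Per length, Marco and Lrp1 changed places between libraries and their ranges overlapped, at 1283 ± 269.7 and 1207 ± 156 TPM. Msr1, Scarb2, Cd36 and Scarb1 followed from 606 to 182 TPM. The lectin-like oxidised lipoprotein receptor Olr1 and Vldlr were under 1 CPM, with 5 and 4 counts over all libraries.

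Receptors for dying cells bind phosphatidylserine directly or through bridging proteins. Axl, a receptor kinase bridged by Gas6, stood at 2715, 2518, 2118 and 2544 CPM, its relative Mertk at 932, 1182, 1091 and 1109.6 CPM and the integrin chain Itgb5 at 537, 541, 455 and 545 CPM. Mertk was lowest in Sham 1, while Axl and Itgb5 were lowest in Sham 3. Per length the order was Axl at 1853 ± 82.6 TPM, Timd4 at 1539 ± 248, Mertk at 944 ± 125 and Itgb5 at 552 ± 24.1. The ranges of Axl and Timd4 overlapped. The third member of the Axl and Mertk kinase family, Tyro3, had 4 counts in all. Havcr1 had 2 counts, and Megf10 had no count. Trem2, a lipid-sensing receptor that marks other macrophage states, was present at a low level, 15.9, 13.1, 19.7 and 16.7 CPM.

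Among complement and Fc receptors, Vsig4 led per length at 5728 ± 539.5 TPM, with no overlap with the next member. The Fc receptor signalling chain Fcer1g stood at 504, 492, 395 and 426 CPM, the low-affinity Fc receptor Fcgr3 at 927, 862, 744 and 736 CPM and Fcgr4 at 522, 687, 461 and 489 CPM. Sham 2 was highest for Fcgr4, and the ranges of Fcgr3 and Fcgr4 overlapped per length. The neonatal Fc receptor Fcgrt, the integrin chain Itgb2, Fcgr1 and the C5a receptor C5ar1 followed from 783 to 361 TPM. B-cell complement receptor Cr2 was under 1 CPM, at 0.337, 0.147, 0.320 and 0.372 CPM.

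C-type lectins were dominated by Clec4f, and the next member, Clec2d, stood at 819 ± 129 TPM. Cd207, the langerin gene, stood at 387, 281, 225 and 338 CPM, and the inhibitory lectin Clec4a1 at 299, 305, 192 and 209 CPM. Clec4a3, the fungal receptors Clec4n and Clec7a, and Clec1b stood between 544 and 249 TPM. Cd209a and Mgl2, lectins of dendritic cells, were under 1 CPM in every library.

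Every one of the 26 pattern recognition genes reached 1 CPM in every library. The lipopolysaccharide co-receptor Cd14 led at 1086, 514, 370.1 and 457 CPM, with Sham 1 more than 2 times each of the other libraries. Tlr2, a receptor for bacterial lipopeptides, stood at 514, 248, 195 and 174 CPM and was again highest in Sham 1. Receptors for RNA inside endosomes were steadier: Tlr7 stood at 463, 578, 379.9 and 531 CPM and Tlr8 at 315, 287, 258 and 315 CPM. Tlr4, the lipopolysaccharide receptor itself, stood at 237, 274, 265 and 256 CPM, a CV of 6.21%. Ly86, Tlr13 and the inflammasome sensor Nlrp3 lay between 302 and 193 TPM. The flagellin receptor Tlr5 was the lowest, at 3.03, 2.65, 1.68 and 2.61 CPM; it was picked out after its value was seen.

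Cytokine and growth factor receptors were led by Csf1r, the receptor on which macrophage survival depends, at 4121 ± 269.8 TPM. The interferon gamma receptor chain Ifngr1 stood at 719, 689, 507 and 664 CPM, the tumour necrosis factor receptor Tnfrsf1a at 419.8, 375, 438 and 322 CPM and the shared beta chain Csf2rb at 896, 783, 828 and 664 CPM. Sham 3 was lowest for Ifngr1 and highest for Tnfrsf1a. Tnfrsf1b, Csf2ra, Il10ra and Il4ra followed from 383 to 238 TPM, and their neighbouring ranges overlapped. Flt3, Il18r1 and Il1rl1, receptors of progenitors and lymphoid cells, were under 1 CPM on average, at 0.236 ± 0.173, 0.182 ± 0.125 and 0.601 ± 0.304 CPM.

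G protein-coupled receptors were less complete, with 26 of 39 at 1 CPM or more in every library and 3 with no count. The formyl peptide receptor Fpr1 led at 682, 476, 428 and 335 CPM, and its relative Fpr2 stood at 169.5, 117, 79.9 and 70.7 CPM. The nucleotide receptor P2ry13 stood at 429, 374, 341 and 309 CPM and the acid sensor Gpr65 at 214, 199, 161 and 210.2 CPM. Fpr1, Fpr2 and P2ry13 were each highest in Sham 1 and lowest in Sham 4. The nucleotide receptors P2ry12 and P2ry6 stood at 219.6 and 161 TPM. The neutrophil receptor Cxcr2 and the lymph node homing receptor Ccr7 were under 1 CPM, at 0.374 ± 0.245 and 0.281 ± 0.211 CPM. The short-chain fatty acid receptor Ffar2, Ffar4 and the bile acid receptor Gpbar1 had no count, which allows up to 0.0283 CPM over the libraries together at 3 counts of the total, counting error only.

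Paired activating and inhibitory receptors tune phagocyte responses, and 24 of 24 reached 1 CPM in every library. Tyrobp stood at 567, 576, 471 and 573 CPM, Siglece, an inhibitory sialic acid receptor, at 773, 690.3, 561 and 515 CPM, and Siglec1, the macrophage adhesion receptor CD169, at 1964, 2434, 2195 and 2216 CPM. Cd300ld followed at 809, 715, 473 and 700.4 CPM. Siglec1 was lowest in Sham 1, Siglece in Sham 4 and Cd300ld in Sham 3. The "do not eat me" receptor Sirpa, Treml4, Pirb and Pilra stood between 948 and 387 TPM.

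Of the receptor, transcription factor and secreted lists, that of transcription factors was the most complete. Of 96 genes, 90 (93.8%) reached 1 CPM in every library, beside 51.1% of all protein-coding genes. The median over all members was 76.6 TPM, against 82.7 TPM for the receptor class and 26.4 TPM for secreted products. These lists were chosen for macrophages, with the same limit as above.

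Among the lineage factors, Cebpb, a myeloid leucine zipper factor, stood at 355, 315, 314 and 229 CPM, Id3, an inhibitor of basic helix-loop-helix factors that is needed for Kupffer cells, at 283, 305, 289 and 217 CPM, and the flow-sensitive factor Klf2 at 251, 307, 308 and 233 CPM. Sham 4 was lowest for each of these 3 genes. The ranges of neighbours per length from Cebpb to Maf overlapped, so their order was not firm. Maf, Spi1 (PU.1, the master factor of the myeloid lineage), Irf5 and Spic (a factor of red pulp macrophages and Kupffer cells) followed from 443 to 289 TPM. Spic had the widest spread of these 7 genes, at 537, 298, 184 and 178 CPM, with Sham 1 at the top. Gata6, which defines peritoneal macrophages, stood at 0.599, 0.920, 1.32 and 0.744 CPM. Gata2 and Bhlhe41, factors of mast cells and of alveolar macrophages, had means of 0.737 ± 0.205 and 0.406 ± 0.0787 CPM, and Runx3 one of 0.188 ± 0.0481 CPM.

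Nuclear receptors bind lipids, hormones and haem. The retinoid X receptor Rxra stood at 821, 977, 909 and 982 CPM, and its partner Nr1h3, the liver X receptor alpha that controls cholesterol efflux, at 389.8, 356, 399 and 329.6 CPM. Nr4a1 stood at 139.5, 150.0, 190.1 and 96.1 CPM and the glucocorticoid receptor Nr3c1 at 262, 274, 285 and 263 CPM. Nr4a1 was the most spread of these 4, highest in Sham 3. Rxrb, Nr1h2, Nr2f6 and Rara stood between 75.7 and 42.1 TPM.

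Factors that respond to stimuli were abundant. Irf7, an interferon-induced regulator, stood at 692, 876, 703 and 734 CPM, the immediate early factor Fos at 364, 439.9, 412 and 335 CPM, Junb at 413, 429, 345 and 311 CPM and Klf6 at 462, 496, 445 and 425 CPM. Sham 2 was highest for all 4. Jund, Stat6, Jun and Irf1 followed from 342 to 205 TPM, and Jun was highest in Sham 3, at 139, 214, 326 and 135 CPM. Fosl1 was the only member of this list under 1 CPM on average, with 4 counts. Across the 31 members with a mean of 10 CPM or more, 20 were lowest in Sham 4, against 21.7% of all 8520 genes at that level.

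Secreted products were more uneven. Of 146 genes, 105 (71.9%) reached 1 CPM in every library, 33 had a mean under 1 CPM and 5 had no count. Beside it, 51.1% of all protein-coding genes reached the same level. The share depends on which genes were put in the list, so it describes the list only. The whole class summed to 71896, 70903, 55431 and 65070 CPM, and Ctsb, Apoe and Cd5l held the most counts in it.

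Complement was the leading secreted family besides apolipoprotein and lysosomal genes, at 19681, 19816, 16032 and 18414 CPM in sum. C1qa, C1qb and C1qc, the chains of the recognition molecule of the classical pathway, stood at 3530.5, 3543, 2870.2 and 3393, at 3779, 3660, 2995 and 3436 and at 3826, 3785, 3061 and 3799 CPM. All 3 chains were lowest in Sham 3, and C1qa and C1qb could not be ordered per length. Fcna, a ficolin of the lectin pathway, stood at 2801, 2521, 2216 and 2715 CPM, and properdin, encoded by Cfp, reached 3689 ± 322 TPM. C6, a terminal complement component, C4b and C3 stood at 1418, 771 and 428 TPM. C7, another terminal component, had 6 counts in all, and Cfd had none.

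Chemokines were led by Ccl6 at 1335, 1182, 996 and 1252 CPM. Cxcl13, which draws B cells, stood at 764, 581, 418 and 305 CPM, Ccl24, which draws eosinophils, at 163, 162, 134 and 172 CPM, and Cxcl16, which also binds oxidised lipids, at 385, 282, 255 and 228 CPM. Cxcl13 ran in steps from Sham 1 down to Sham 4, while Ccl24 was lowest in Sham 3 and otherwise close between libraries. Ccl9 and the monocyte chemokines Ccl2 and Ccl7 lay between 199 and 141 TPM, with Ccl3 at 173 TPM. Cxcl3, Cxcl11, Ccl19 and Ccl8 had means under 1 CPM, and Cxcl5 had no count.

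Cytokines of the interleukin 1 family led their list. Il18bp, a decoy that binds interleukin 18, stood at 626, 664, 416 and 580.3 CPM, Il1b at 594, 291, 251 and 237 CPM, Il1a at 195, 137, 113 and 108 CPM and Il18 at 60.3, 63.8, 62.6 and 54.1 CPM. Sham 1 was highest for Il1b and Il1a, and Il1b there was above the highest of the other libraries by more than their whole range. Ebi3, Tgfb1, Mif and the anti-inflammatory Il10 stood at 163, 157, 94.5 and 75.5 TPM. The levels of Tnf, 25.9, 13.8, 19.5 and 6.33 CPM, and Il6, 32.5, 17.7, 19.5 and 18.01 CPM, were looked up after the values were seen. Ifng and Csf2 had no count, and Il12a, Il23a, Ifnb1 and Lif had means of 0.0200, 0.165, 0.0300 and 0.0184 CPM.

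Growth factors were led by progranulin, Grn, at 2226, 2199, 1802 and 2182 CPM, and by insulin-like growth factor 1, Igf1, at 697, 689.8, 472 and 729 CPM. The bridging protein Pros1 stood at 116, 101, 105 and 98.5 CPM and the vasodilator peptide Adm at 52.5, 31.1, 25.5 and 19.9 CPM. Hbegf, Gas6, Pdgfb and Hgf followed from 66.9 to 23.8 TPM. The epidermal growth factor family members Ereg and Nrg1 were under 1 CPM, and Areg had no count. Of the remaining secreted proteins, Apoe, Cd5l, Lyz2, Ctsb and Psap have been given. Selenop, the selenium carrier, stood at 3306 ± 363 TPM, Ctsd at 2043 ± 74.8 TPM and the protease inhibitor Cst3 at 1542 ± 76.5 TPM. Timp1, Slpi, Chil3 and Retnla, products of activated or alternatively activated macrophages elsewhere, had means of 0.0859, 0.141, 0.0560 and 0.0568 CPM, all within a few counts of 0.

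**Figure D3:**
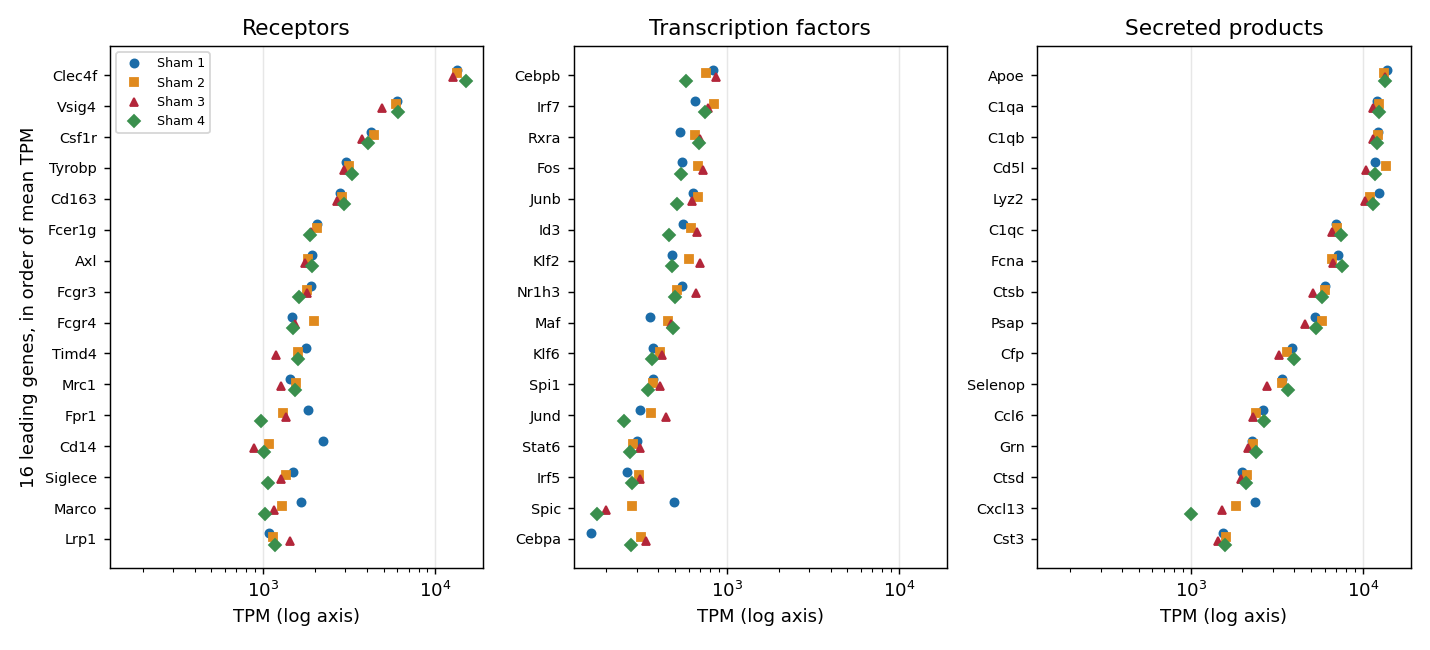
TPM in each Sham library (horizontal log axis) for 16 leading receptors, transcription factors and secreted products, in order of mean TPM within their class. Within a gene the libraries mostly lie close together, and Sham 1 stands to the right for Cd14, Marco and Spic.

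Genes of digestion, iron and lipid handling were abundant. Of 27 lysosomal genes, 26 had a mean of 100 CPM or more. Ctsb stood at 10235, 10024, 7426 and 9156 CPM, Ctss at 3356, 3714, 2381 and 3142 CPM, the saposin precursor gene Psap at 4101, 4354, 3045 and 3873 CPM and Lgmn at 3006, 2761, 2307 and 2704 CPM. Sham 3 was lowest for all 4. The list summed to 42331, 42309, 31622 and 39092 CPM, a mean of 38838 CPM, or 41244 without Sham 3. The exception in the list was the tetraspanin Cd63, singled out after its value was seen, at 2.81, 1.84, 1.52 and 1.15 CPM. In the iron and haem list, Hmox1 stood at 2623, 2658, 1918 and 1815 CPM, Ftl1 at 1599, 1451, 1239 and 1405 CPM and Slc40a1 at 5434, 5142, 4674 and 5802 CPM. Hmox1 split the libraries into Sham 1 and Sham 2 above Sham 3 and Sham 4. Trf reached 2386 ± 136 TPM, but 63.5% of its exon length overlaps another gene. Fth1, the natural resistance transporter Slc11a1, the haem transporter Slc48a1 and Blvrb, a biliverdin reductase, followed from 1469.6 to 197 TPM. Ferritin genes have near-identical copies in the genome, so their counts are uncertain.

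In the lipid list, Apoe was followed per length by the phospholipid transfer protein Pltp at 1347 ± 29.03 TPM, the cholesterol exporter Abca1 at 778 ± 109 TPM and the desaturase Scd1 at 608 ± 166 TPM. Scd1 was highest in Sham 2, at 651, 1116, 574 and 823 CPM. Fabp7, Lipa, the lipid droplet protein Plin2 and Lpl followed from 473 to 288 TPM, and the sterol hydroxylase Ch25h had a mean of 0.127 CPM.

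Markers of other cells fell into lists that were present and lists that were near 0. Over 191 marker genes of 17 other cell types, the summed level was 13692, 14081, 11175 and 12277 CPM, a mean of 12806 ± 1335 CPM, or 13350 without Sham 3. Of these genes, 89 reached 1 CPM in every library, 97 had a mean under 1 CPM and 12 had no count. Without the 3 genes that are also in the Kupffer cell and macrophage lists, the sum was 10948 CPM.

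Hepatocyte transcripts were the largest part, with all 18 markers at 1 CPM or more and a sum of 8085, 8679, 6564 and 7229 CPM. Trf, which is also in the iron list and whose exons overlap another gene, made up 2361, 2225, 1753 and 2079.7 CPM of it, and without Trf the sum was 5724, 6454, 4812 and 5149 CPM. Alb, the albumin gene, stood at 2341, 2452, 1681 and 1814 CPM, the protease inhibitor Serpina3k at 492, 499, 344 and 351 CPM and the urinary protein Mup3 at 202, 188, 151 and 159 CPM. Sham 1 and Sham 2 were higher than Sham 3 and Sham 4 for these 3 genes. Pck1 and Cps1, of gluconeogenesis and the urea cycle, had the opposite order, at 187, 231, 254 and 339 and 219, 238, 322 and 428 CPM, and the second of these was picked out after its values were seen. Apoa1, Hpx, Fga and Ahsg stood between 450.4 and 326 TPM. Whether these transcripts came from hepatocytes, engulfed material or free RNA was not tested.

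Sinusoidal endothelial markers summed to 794, 746, 673 and 739 CPM, of which Stab2, a hyaluronan scavenger receptor, made up 376, 368, 337 and 384 CPM. Lyve1 stood at 61.4, 73.97, 52.4 and 80.8 CPM, Dnase1l3 at 87.1, 102, 66.8 and 81.9 CPM and the water channel Aqp1 at 26.3, 21.04, 22.8 and 17.01 CPM. Defining members were low: Clec4g stood at 17.7, 12.4, 13.8 and 9.30 CPM and Plvap at 17.96, 16.4, 14.2 and 15.5 CPM. The remaining endothelial list was carried by Cdh5, which is itself a Kupffer cell gene, at 1699, 1630.5, 1283 and 1579 CPM and Pecam1 at 216, 199, 138 and 201 CPM, whereas Emcn, Cldn5 and Sele had means of 0.577, 0.587 and 0.0460 CPM. Stellate cell and fibroblast markers summed to 251, 243, 214 and 222 CPM, with Ecm1 the largest member at 123, 114, 103 and 103 CPM, while Col1a1 and Acta2 had means of 0.921 and 0.218 CPM.

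Bile duct markers summed to 8.08, 9.78, 12.3 and 8.04 CPM, mostly Krt18, a keratin that hepatocytes also carry, at 4.04, 6.22, 7.003 and 5.10 CPM. The bile duct genes Epcam and Krt19 had means of 0.0839 and 0.0657 CPM.

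Blood cell lists were low or were carried by a few genes beside other members near 0. Which cells these transcripts came from was not tested. Neutrophil markers summed to 168, 129, 137 and 107 CPM, most of it the receptor Csf3r at 139, 115, 128 and 97.3 CPM, while S100a9 and S100a8 had means of 1.60 ± 0.938 and 1.49 ± 0.580 CPM and Ly6g and Camp had no count. In the monocyte list, Treml4 and Plac8 stood at 436, 353, 299 and 299 and 229, 313, 183 and 266 CPM, but Ly6c2 had a mean of 0.123 CPM. The whole monocyte list summed to 968, 1072, 895 and 797 CPM, of which the receptor Ccr2 made up 2.92, 3.53, 2.36 and 4.02 CPM. In the B-cell list, Bank1 stood at 267, 256, 229 and 267 CPM and Cd22 at 79.8, 77.6, 68.5 and 75.8 CPM, beside 0.225 CPM for Cd79a and 0.336 for Ms4a1. Plasma cell markers summed to 268, 261, 269 and 209.8 CPM, nearly all of it the secretory factor Xbp1 at 262, 249, 262 and 203 CPM, with Mzb1 at 0. Plasmacytoid dendritic markers summed to 239, 253, 230.1 and 277 CPM, through Tcf4 at 143, 152, 145 and 173 CPM and the interferon-induced Bst2 at 95.8, 101, 84.6 and 103 CPM, whereas Siglech had a mean of 0.219 CPM. The T-cell list held Cd4 at 25.6, 20.3, 11.9 and 21.3 CPM, beside 0.197 CPM for Cd3e and 0.0469 for Trac. Natural killer and innate lymphoid markers summed to 0.898, 1.73, 1.56 and 0.447 CPM, and none of the 11 reached 1 CPM. Platelet markers summed to 38.98, 28.8, 22.6 and 32.3 CPM, mostly Pf4 at 31.1, 16.3, 15.9 and 24.7 CPM, while Gp9 had a mean of 0.150 CPM. Erythroid markers summed to 5.35, 13.1, 4.56 and 7.03 CPM, highest in Sham 2, with Alas2 at 4.15, 9.01, 3.80 and 5.84 CPM. Mast cell and basophil markers summed to 7.03, 6.51, 7.36 and 4.99 CPM, and Fcer1a, Cpa3 and Mcpt8 had no count. Markers of capsule and lipid-associated macrophages summed to 449, 337, 277 and 388 CPM, most of it Cd207, while Spp1 had a mean of 0.886 CPM. The alpha globin genes Hba-a1 and Hba-a2, whose copies are near-identical, had no count and their level is uncertain. Transcripts of the Y-linked gene Ddx3y stood at 148, 139, 127 and 132 CPM, and Xist at 0.0374, 0.147, 0 and 0.186 CPM.

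**Figure D4:**
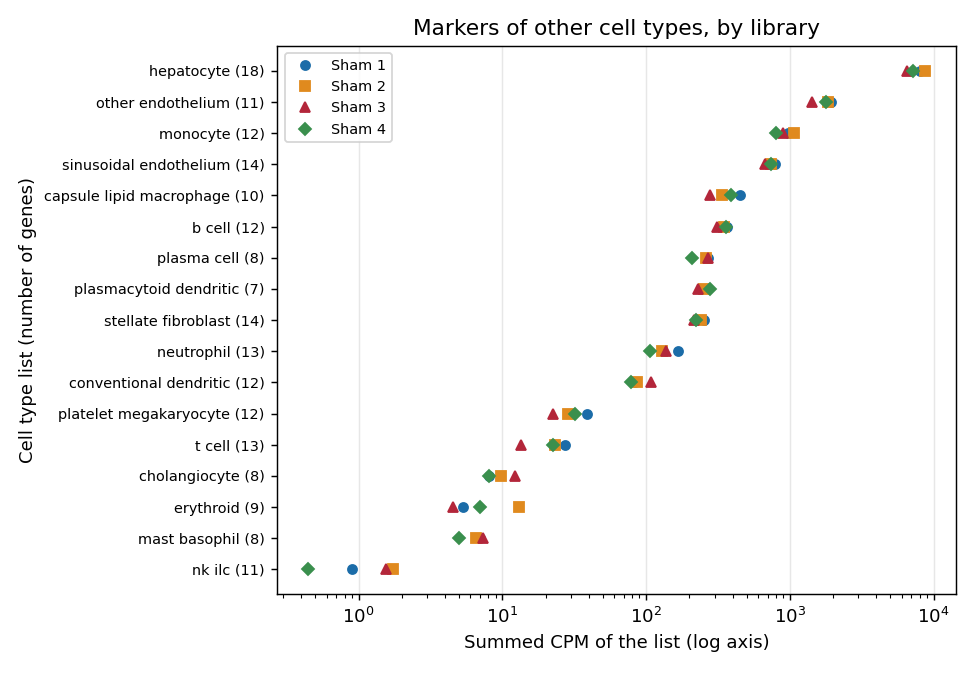
Summed CPM (horizontal log axis) of the marker list of each other cell type in each Sham library. Hepatocyte markers sum to between 6564 and 8679 CPM, and natural killer markers to between 0.447 and 1.73 CPM.

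Most genes varied little between libraries. Among 8520 genes with a mean of 10 CPM or more, the median CV was 10.2%, against 2.90% from counting error alone, and without Sham 3 it was 7.24%. The median was 21.4% between 1 and 10 CPM and 11.8% from 1000 CPM up, so depth was not the limit for abundant genes. The common biological coefficient of variation fitted by edgeR was 14.97%. The highest library was 2 or more times the lowest for 385 genes. This count was 211 without Sham 1 and 225 without Sham 3.

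The steadiest gene was Arid1b, a chromatin remodelling subunit, at 109.8, 109, 109 and 110.0 CPM, a ratio of highest to lowest of 1.01. The next in order, Ctdspl2, Cdkal1, Tmf1, Fibp, Zfp646, Stambp, the DNA ligase gene Lig3, Eya3 and Emc6, had ratios up to 1.02. At the other end, Gpr84, a receptor for medium-chain fatty acids, stood at 50.9, 16.99, 14.2 and 8.22 CPM, a ratio of 6.19. However, 39.5% of the Gpr84 exon length overlaps another gene. Fbxo32, a ubiquitin ligase subunit, stood at 56.5, 84.7, 21.8 and 134 CPM and was lowest in Sham 3. The membrane protease Mmp14 stood at 121, 54.4, 27.7 and 25.6 CPM, and Cytip, an adhesion regulator, at 128, 64.7, 27.1 and 108 CPM. The next genes were Rnd1, the phosphatase gene Dusp2, the chemokine Ccl7 and Selenbp2, with ratios between 4.13 and 4.61. Hspa1b and Hspa1a, whose promoters are shown with the heat shock genes, completed the 10.

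Sham 1 held the highest levels of most chemokine and cytokine genes. Its largest gaps from the median of the other libraries were Mmp14, at 4.38 times, Rnd1 at 4.08, Gpr84 at 3.59, the costimulatory ligand Icosl at 3.35 and the syndecan Sdc4 at 3.27. Of the 17 chemokines with a mean of 10 CPM or more, 13 were highest in Sham 1, and of 17 cytokines 12 were. Beside these, 34.8% of all genes at that level were highest in Sham 1. With total-count scaling the counts were 11 and 11, and the share of all genes was 18.9%. The cytokine list summed to 2316, 1791, 1429 and 1567 CPM, a mean of 1776 CPM, or 1596 without Sham 1. The neutrophil marker sum was also highest in Sham 1 and the monocyte sum in Sham 2, and their part in these values was not tested.

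Most interferon-stimulated genes were lowest in Sham 1: 12 of 16 were lowest there, against 19.3% of all genes. With total-count scaling 13 were lowest there, against 33.7% of all genes. Ifit3, an antiviral RNA-binding protein, stood at 105, 153, 104 and 159 CPM, its relative Ifit2 at 158, 283, 209 and 241 CPM and Oas1a, a sensor of viral RNA, at 90.9, 102, 91.3 and 98.6 CPM. Ifit2 and Oas1a were highest in Sham 2, as was Irf7, and Ifit3 was highest in Sham 4. Isg15, Rsad2 and Oasl2 stood between 125 and 120.2 TPM.

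Gaps of Sham 2 and Sham 4 were of other genes. Selenbp2 in Sham 2 was 0.254 times the median of the others, at 35.2, 9.93, 41.1 and 39.1 CPM, and the acute phase gene Saa2 was 3.02 times, at 12.8, 38.5, 27.4 and 11.98 CPM. Top2a, the replication regulator Uhrf1 and the urinary protein Mup11 were low in Sham 2, and Mup11 has near-identical copies, so its count is uncertain. In Sham 4 the niacin receptor Hcar2 was low, at 38.1, 41.1, 42.3 and 12.6 CPM, as were Ccl7 and Ccl3, at 52.9, 22.5, 32.9 and 12.1 and 51.8, 33.9, 39.7 and 14.9 CPM. Rrm2 and Top2a were high there, with the other proliferation genes.

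Antigen presentation set Sham 2 above and Sham 3 below the rest. Major histocompatibility complex (MHC) class II molecules display peptides to CD4 T cells, and Cd74 encodes their invariant chain. Cd74 stood at 2697, 4168, 1829.9 and 2567 CPM, H2-Ab1 at 849, 1432, 557 and 857 CPM, H2-Eb1 at 621, 1078, 383 and 620.4 CPM and H2-Aa at 858, 1386, 525 and 837 CPM. In each of the 4 genes Sham 2 was highest, Sham 3 lowest, and Sham 1 and Sham 4 lay between them. The same order held for all 7 class II pathway genes with a mean of 10 CPM or more: 7 were highest in Sham 2, against 19.8% of all genes, and 7 were lowest in Sham 3, against 43.9% (with total-count scaling, 7 and 6). The class II genes were set apart from the presentation list after their values were seen. Summed, they held 5312, 8461, 3517 and 5192 CPM, a mean of 5621 CPM, or 6322 without Sham 3. Class I genes varied less, with B2m at 1759.8, 1978, 1393 and 1589 CPM and H2-D1 at 2664, 3061, 2033 and 2411 CPM. Markers of conventional dendritic cells, which also carry class II, summed to 84.1, 86.6, 109 and 78.4 CPM. Of the 12 genes in that list, 5 reached 1 CPM in every library and 3 had a mean of 10 CPM or more. Clec9a stood at 22.0, 29.2, 42.4 and 35.3 CPM, highest in Sham 3, whereas Flt3, Ccr7 and Cd209a were under 1 CPM. With few counts, Flt3 stood at 0.112, 0.478, 0.240 and 0.112 CPM and Ccr7 at 0.224, 0.589, 0.200 and 0.112 CPM. Both were highest in Sham 2. B-cell markers summed to 363, 349, 309 and 361 CPM, and hepatocyte markers were highest in Sham 2 for 12 of 18 genes; the part of these cells in the class II values was not tested.

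Class II genes are known to share short promoter elements, so the 250 bases before the start of H2-Aa (chr17:34287824-34288073, minus strand) and of H2-Eb1 (chr17:34305617-34305866, plus strand) are shown, 5′ to 3′ in the direction of the gene, from RefSeq on GRCm38.p6. Capitals mark the Y box, searched as CTGATTGG on both strands.
H2-Aa: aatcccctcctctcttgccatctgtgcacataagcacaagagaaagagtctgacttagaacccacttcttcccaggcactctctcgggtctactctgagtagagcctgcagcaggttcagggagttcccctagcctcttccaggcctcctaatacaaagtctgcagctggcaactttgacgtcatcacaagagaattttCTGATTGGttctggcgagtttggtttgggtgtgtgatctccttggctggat
H2-Eb1: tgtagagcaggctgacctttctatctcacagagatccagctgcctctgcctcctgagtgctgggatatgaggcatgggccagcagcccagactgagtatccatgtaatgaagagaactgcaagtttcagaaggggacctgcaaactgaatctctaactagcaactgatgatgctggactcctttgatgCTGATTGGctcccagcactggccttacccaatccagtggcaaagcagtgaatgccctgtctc
The Y box lies in 3 of the 7 class II pathway genes found in the RefSeq table (H2-Aa, H2-Eb1 and H2-Oa) and in 3.83% of all 32851 promoter entries. Between its end and the start lie 43 bases in H2-Aa and 54 in H2-Eb1. The motifs in these and the following windows were chosen after the values were seen. A match is a description of the sequence only.

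Sham 3 combined high levels of chaperone genes with low levels of lysosomal genes. The inducible Hsp70 genes Hspa1a and Hspa1b, which encode the same chaperone, stood at 82.6, 135, 245 and 60.5 CPM and 62.9, 108, 216 and 42.6 CPM. Both had the order Sham 3, Sham 2, Sham 1, Sham 4 from the highest down, and the ratio of Sham 3 to Sham 4 was 4.05 and 5.08. All 5 chaperone genes of the early response list were highest in Sham 3 under each scaling, against 24.5% of all genes, or 41.1% with total-count scaling. These genes were grouped after their values were seen. Dnajb1, the Hsp40 partner, stood at 32.1, 37.1, 80.7 and 28.4 CPM, and the constitutive Hspa8 at 857, 714, 1062 and 689 CPM. Onecut2, a liver transcription factor gene, had the largest upward gap of Sham 3 from the other libraries, at 14.4, 20.2, 51.6 and 14.6 CPM, and Cytip, Fbxo32 and the glycosyltransferase gene Gcnt1 the largest downward gaps. Immediate early genes, which are known to be induced while tissue is dissociated, had a mixed order. Of 20 early response genes, chaperones included, 12 were highest in Sham 3, against 24.5% of all genes, and 16 were lowest in Sham 4, against 21.7%. With total-count scaling these counts were 14 and 15. Without the 5 chaperones, 7 of 15 were highest in Sham 3 (9 with total-count scaling), and 12 were lowest in Sham 4 (12). Dusp1, a phosphatase of stress kinases, stood at 869.7, 889.5, 684 and 806 CPM, Zfp36, which destabilises cytokine messages, at 379.9, 380.1, 293 and 308 CPM and the growth arrest gene Btg2 at 230.2, 246, 249 and 191 CPM. Dusp1 and Zfp36 were higher in Sham 1 and Sham 2 than in Sham 3 and Sham 4, and Btg2 was lowest in Sham 4.

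Lysosomal genes were lowest in Sham 3 in 26 of 26 cases, against 43.9% of all genes, with a median difference of -0.28 on the log2 scale from each gene's own mean. With total-count scaling 25 were lowest there, against 25.2% of all genes.

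The 250 bases before the starts of Hspa1a (chr17:34972157-34972406, minus strand) and Hspa1b (chr17:34959239-34959488, minus strand) show how alike the genes are. Capitals mark the core of a heat shock element, searched as GAANNTTC, which reads the same on both strands.
Hspa1a: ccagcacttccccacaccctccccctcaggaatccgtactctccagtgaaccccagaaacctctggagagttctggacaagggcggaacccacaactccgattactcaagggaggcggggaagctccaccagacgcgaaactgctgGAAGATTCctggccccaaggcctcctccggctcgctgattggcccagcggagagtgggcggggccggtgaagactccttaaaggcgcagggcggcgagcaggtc
Hspa1b: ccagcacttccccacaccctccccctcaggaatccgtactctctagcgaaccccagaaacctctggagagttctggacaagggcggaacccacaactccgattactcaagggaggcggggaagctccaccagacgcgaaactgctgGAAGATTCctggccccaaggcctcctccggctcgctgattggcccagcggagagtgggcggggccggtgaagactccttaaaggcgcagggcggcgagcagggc
The windows are identical at 247 of 250 positions without gaps, and each holds 1 match, which begins 104 bases before the start. The element lies in 6.69% of all promoter entries and was not found in those of Dnajb1. Since the transcribed parts are near copies as well, reads can be shared between Hspa1a and Hspa1b, and the split between them is uncertain.

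Proliferation genes divided the libraries 2 against 2. All 18 cell cycle genes reached 1 CPM in every library, and together they summed to 709, 338, 388 and 771 CPM. Mki67, the proliferation antigen, stood at 208, 91.4, 94.95 and 197 CPM, and the DNA topoisomerase gene Top2a at 104, 37.9, 40.7 and 124 CPM. Pcna, the replication clamp, stood at 83.4, 61.1, 67.4 and 87.2 CPM and the helicase subunit Mcm5 at 52.1, 21.4, 37.6 and 65.3 CPM. Sham 1 and Sham 4 were above Sham 2 and Sham 3 in each. Among 11 members with a mean of 10 CPM or more, all 11 were above their own mean in Sham 1 and in Sham 4 and below it in Sham 2 and Sham 3. The median differences were 0.45, -0.76, -0.46 and 0.68 on the log2 scale, against 0.04, 0.01, -0.06 and 0.00 over all genes at that level. Tk1, Rrm2, Ccnb2 and Mcm2 followed from 32.4 to 17.2 TPM. Marker lists of other cells that can cycle were present to different extents: 18 of 18 hepatocyte, 14 of 14 sinusoidal endothelial, 7 of 12 monocyte, 4 of 12 B-cell and 1 of 13 T-cell markers reached 1 CPM in every library. Which cells carried the cell cycle transcripts was not tested.

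Promoters of genes expressed in the G2 and M phases are known to carry repeated CCAAT boxes, and the windows of Top2a (chr11:99024190-99024439, minus strand) and Mki67 (chr7:135716380-135716629, minus strand) are shown with these in capitals, on both strands (CCAAT or ATTGG).
Top2a: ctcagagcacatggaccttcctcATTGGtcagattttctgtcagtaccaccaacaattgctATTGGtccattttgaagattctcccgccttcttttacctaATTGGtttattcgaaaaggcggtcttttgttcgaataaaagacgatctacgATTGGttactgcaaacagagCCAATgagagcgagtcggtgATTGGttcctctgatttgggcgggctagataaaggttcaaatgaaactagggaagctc
Mki67: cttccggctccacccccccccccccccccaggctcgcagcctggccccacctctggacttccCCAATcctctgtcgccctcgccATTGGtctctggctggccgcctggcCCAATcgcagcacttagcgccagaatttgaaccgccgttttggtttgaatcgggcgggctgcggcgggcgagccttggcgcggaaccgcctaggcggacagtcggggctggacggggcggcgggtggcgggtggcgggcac
CCAAT is part of the Y box searched in the class II windows, so the matches can overlap. Top2a has 6 matches and Mki67 3. Of the 15 cell cycle genes found in the RefSeq table, 13 have at least 1 match, whereas 33.9% of all promoter entries do. The cell cycle homology region, searched as TTTGAA on both strands, lies in 5 of them (Mki67, Top2a, Ccnb2, Cdk1 and Mcm2) and in 15.99% of all entries.

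**Figure D5:**
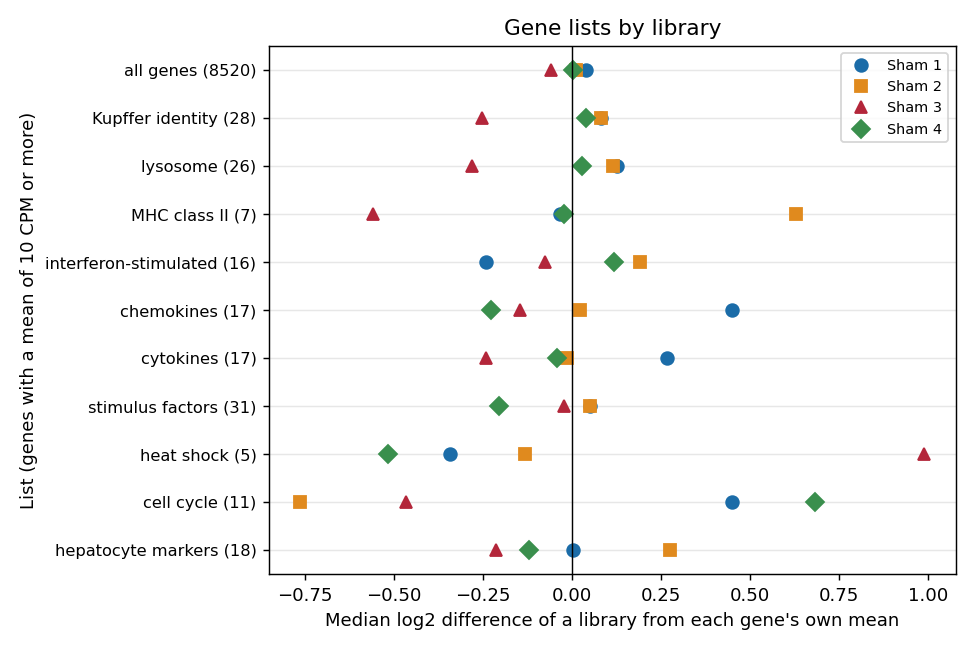
Median log2 difference of each Sham library from the own mean of each gene (horizontal axis, 0 marked) for gene lists, with the number of genes of 10 CPM or more in brackets. Sham 3 is highest for heat shock at 0.99 and lowest for MHC class II at -0.56, and cell cycle genes separate Sham 1 and Sham 4 from Sham 2 and Sham 3.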

How the data were processed

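The deposited table holds whole-number counts of reads per gene for 55414 mouse Ensembl genes. Per the labels' protocols, RNA was extracted with an Aurum kit, made into libraries with a stranded Illumina TruSeq kit and sequenced on an Element AVITI. Per the submitters' processing notes, STAR 2.7.10b, FastQC, featureCounts and DESeq2 were used with the mm39 build. The sources used here give neither the annotation release nor the strand and multi-mapping settings, so overlapping and near-identical genes are uncertain. The 4 columns of the other group were not used, and no groups were compared. Dixon's test for a library apart from the other 3 was the only test applied.

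Gene symbols and merged exon lengths came from GENCODE M21 on GRCm38 and matched 52133 genes with 99.8% of counts. CPM were scaled by TMM over the Sham libraries alone in edgeR 4.0.16 (R 4.3.3). Other steps used Python 3.11.15 with pandas 2.3.3 and matplotlib 3.10.9. The TPM used the merged exon lengths. The fit and the gap measures were tested on simulated data. A gene with no count allows up to 3 counts, or 0.107 to 0.129 CPM in a library. Alternatives were total-count scaling, DESeq2 1.42.0 size factors, totals without mitochondrial genes, other minimum levels, another gene length and leaving out each library. Promoter sequences came from RefSeq on GRCm38.p6.

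Named genes were the 4 markers, the 20 leading genes by CPM and by TPM, the leading 8 members of each list by TPM with defining members under 1 CPM, the 10 most and least variable protein-coding genes with a mean of 20 CPM or more, and the 5 largest gaps of each library. Genes outside this rule are Itgam, Cx3cr1, Tlr5, Tnf, Il6, Cd63, Cps1, Dnajb1 and Xlr, chosen after their values were seen. The members and lists were chosen with earlier results of these data known. Of 818 list entries, 1 had no match. A few list members that meet the rule are counted in their lists but not reported here by name.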

Additional observations from a re-analysis of the deposited data

Results flagged for a closer look

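Of the named genes, 153 were checked. In 12 of these the gap of the highest or lowest library to the nearest other passed the 95% limit of Dixon's test for 4 values. Of 52 list sums, 3 passed it. The 153 genes do not cover every named gene, so absence from this section does not place a gene within the limit. Chance flags about 1 in 20. Over all 8520 genes with a mean of 10 CPM or more the share was 6.89%, against 7.84% of the 153 genes. Sham 3 was the library that stood apart in 7 of the 12 genes, Sham 1 in 3 and Sham 2 in 2. These flags rest on TMM-scaled CPM alone, and none are given here for total-count scaling. The TMM factors, by which the levels are divided, were 0.949, 0.970, 1.07 and 1.01. The low values of Sham 3 in particular can therefore depend on the scaling.

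Malat1 in Sham 3, at 15808 CPM, was above the 9206 to 9631 CPM of the other libraries. Low values in Sham 3 were Cd163 at 3516 CPM (others 4235 to 4311), C1qc at 3061 (3785 to 3826), Grn at 1802 (2182 to 2226), Igf1 at 472 (689.8 to 729), Tyrobp at 471 (567 to 576) and Itgb5 at 455 (537 to 545). The C-type lectin sum in Sham 3 was 9411 CPM, against 11571 to 11968, and the growth factor sum was 2655 CPM, against 3251 to 3296.

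Il1b in Sham 1 was 594 CPM, against 237 to 291. Trem1, an amplifying receptor of neutrophils and monocytes, was 21.1 CPM in Sham 1, against 3.64 to 6.44, and Rgs5, a pericyte gene, was 26.1 CPM there, against 21.8 to 22.3. In Sham 2, mt-Co1 was 4923 CPM, against 5546 to 5623, and the syndecan gene Sdc1 was 10.4 CPM, against 4.48 to 5.16. The plasma cell marker sum was 210 CPM in Sham 4, against 261 to 269.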

How the results depend on the processing

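Over 13 results and 108 alternatives, 104 values stayed within the spread between libraries or within 1.5 times the count, and 4 did not. Marker levels, the marker sum and the share of the leading 100 genes were judged by 1 SD. Leaving out 1 of 4 libraries can hardly move a mean that far, so those checks could hardly fail. The share of the leading 100 genes is a percentage of counts and was 24.5% under each of the other scalings by construction. The 4 values that moved all belong to the count of genes whose highest library was 2 or more times the lowest, 385 among genes with a mean of 10 CPM or more. The count was 1663 with a minimum mean of 1 CPM and 145 with one of 50 CPM, where more or fewer genes enter by construction. Leaving out 1 library in turn gave 211 to 331 genes, with the lowest values without Sham 1 (211) and without Sham 3 (225). The median CV of 10.2% was 7.24% without Sham 3 and up to 10.96% without another library. Under total-count scaling and DESeq2 size factors, all 155 of 155 named genes that were checked kept their mean within 1 SD. Such a mean over libraries can barely move with the scaling. It was 0.949 to 1.02 times the main value with total-count scaling and 0.998 to 1.002 times with size factors. This check therefore says nothing about the order of the libraries. Total-count scaling did change which library was highest over all genes: Sham 3 held 41.1% of the highest values in place of 24.5%. Between 1 and 10 CPM, counting error alone gives a median CV of 10.4%, and the observed median was 21.4%. Depth therefore accounts for only a part of the spread of these genes. No paired analysis was possible because a single group was described and no groups were compared. The alternatives without Sham 3 or Sham 1 for list sums, the scalings for the highest and lowest library, and the lists without chaperones or Trf, were chosen after seeing the data.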
